A study of Mus musculus with 4 samples.

Results

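The proteasome subunit genes were taken as the protein-coding genes whose symbols begin with Psma to Psmg followed by a number, without *Psmb8*, *Psmb9* and *Psmb10*, and this rule found 47 of the 53465 genes listed, which include 22040 protein-coding genes. Of these, 16 carry core symbols (Psma and Psmb), 26 carry regulatory symbols (Psmc, Psmd and Psme), 4 carry assembly symbols (Psmg) and 1, *Psmf1*, encodes an inhibitor. RNA was measured in mouse FGSCs, cultured female germline stem cells derived from the ovary, transduced with a control hairpin (shNC) or a hairpin that targets *Nat10* (shNAT10), which encodes the enzyme that writes N4-acetylcytidine on RNA. Both short hairpin RNAs were delivered by lentivirus to FGSC cultures, and infected cells were selected with puromycin or blasticidin S, without a statement of which drug served these libraries. No other allele is given for either group, and each group had 2 libraries that the study describes as biological replicates. The comparison asks which proteasome mRNAs differed in level once *Nat10* was knocked down.

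The proteasome is the protease that destroys proteins marked with ubiquitin. Its core particle, the 20S barrel, is built of stacked rings of alpha subunits, which form the gate, and of beta subunits, some of which carry the cutting sites. The 19S regulatory particle sits on the ends of the barrel, where its lid removes ubiquitin and its base, a ring of ATPases, unfolds the substrate and threads it inward. Alternative caps (PA28 and PA200) open the barrel without the 19S particle, dedicated chaperones assemble the rings, and in immune cells or under interferon the 3 constitutive cutting subunits can be replaced by inducible ones. In growing cells most of these mRNAs are kept at a steady level together, and the transcription factor Nfe2l1 raises them when proteasome activity falls short.

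The 4 libraries held 11054429 to 14897495 recovered fragments. *Nat10* stood at 7.79 and 5.42 FPKM (fragments scaled to exon length and library size) in the shNC libraries and at 2.95 and 3.04 FPKM in the shNAT10 libraries, so the groups did not overlap in the targeted gene (log2 fold change -1.09 ± 0.21 SE, limma, Benjamini-Hochberg adjusted p = 0.123). Leaving out shNAT10-1 or shNAT10-2 left *Nat10* at an unadjusted p of 0.0915 or 0.0859 in limma. Of 7 germline markers, *Dazl*, *Pou5f1*, *Dppa3* and *Tfap2c* were listed at 0 throughout, *Ddx4* was covered by 2 fragments in total, *Prdm1* stayed at or under 0.0916 FPKM, and *Ifitm3* was the 1 marker high enough to test, so in these libraries the germline label was not borne out by most of its defining mRNAs. The paper reports *Oct4*, *Ddx4*, *Fragilis* and *Blimp1* by RT-PCR in its FGSCs, and DDX4 and OCT4 by immunofluorescence. Blood cell mRNAs were present, with summed levels of 6 leukocyte markers of 405 and 456 FPKM with shNC against 324 and 338 FPKM with shNAT10.

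Across all the tested subunits the shift was small. A member was called when limma on log2(FPKM + 0.1) gave a fold change over 1.2 at an unadjusted p of at most 0.05, and 44 members had the mean of at least 0.1 FPKM needed for the test. Of these, 3 rose (*Psmc4*, *Psme2* and *Psme4*), against 8.41% of all 20116 genes tested, and 1 fell (*Psmd8*), against 7.83% of all genes. As shares of the 44 members these are 6.82% and 2.27%, counts too small to set the members apart from genes at large. No member (0 of 44) had a Benjamini-Hochberg adjusted p under 0.05 in limma, where 0.437% of all genes did, and 6 members (13.6%) had an unadjusted p under 0.05, as 16.6% of all genes did. When the recovered fragments were tested with limma-voom, *Psmd8* and *Psme4* had an adjusted p under 0.05. With limma without the trend in its variances, 0 members were called, at unadjusted p-values of 0.0843 for *Psmd8*, 0.0682 for *Psme4*, 0.0906 for *Psme2* and 0.119 for *Psmc4*. In bulk RNA, less of an mRNA per cell and fewer cells that carry it cannot be told apart. With 2 libraries against 2, an exact two-sided permutation test of a single gene cannot give a p below 0.3333.

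The directions were uneven. Both shNAT10 libraries lay above both shNC libraries for 13 members (29.5%), against 23.9% of all genes, and below them for 4 members (9.09%), against 24.1% of all genes. Of protein-coding genes in the members' range of mean FPKM, 27.9% lay above and 29.4% below. The higher share of the members was thus near that of these genes, and the lower share was under it. The median log2 fold change was 0.07 over the 44 members and 0.01 over all genes tested, with 32 members above 0 and 12 below, and 23 members changed sign when some single library was left out. The difference between groups was smaller than the gap between the 2 shNC libraries for 29 of the 44. For 34 members (77.3%) the 95% interval of the fold change lay wholly within 1.5-fold in either direction, compared with 47.5% of the 8904 protein-coding genes in the same range of mean FPKM. The median level of those genes was 6.21 FPKM against 23.2 FPKM for the members, and lower genes have wider intervals, so the shares are not matched for level.

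**Figure D1:**
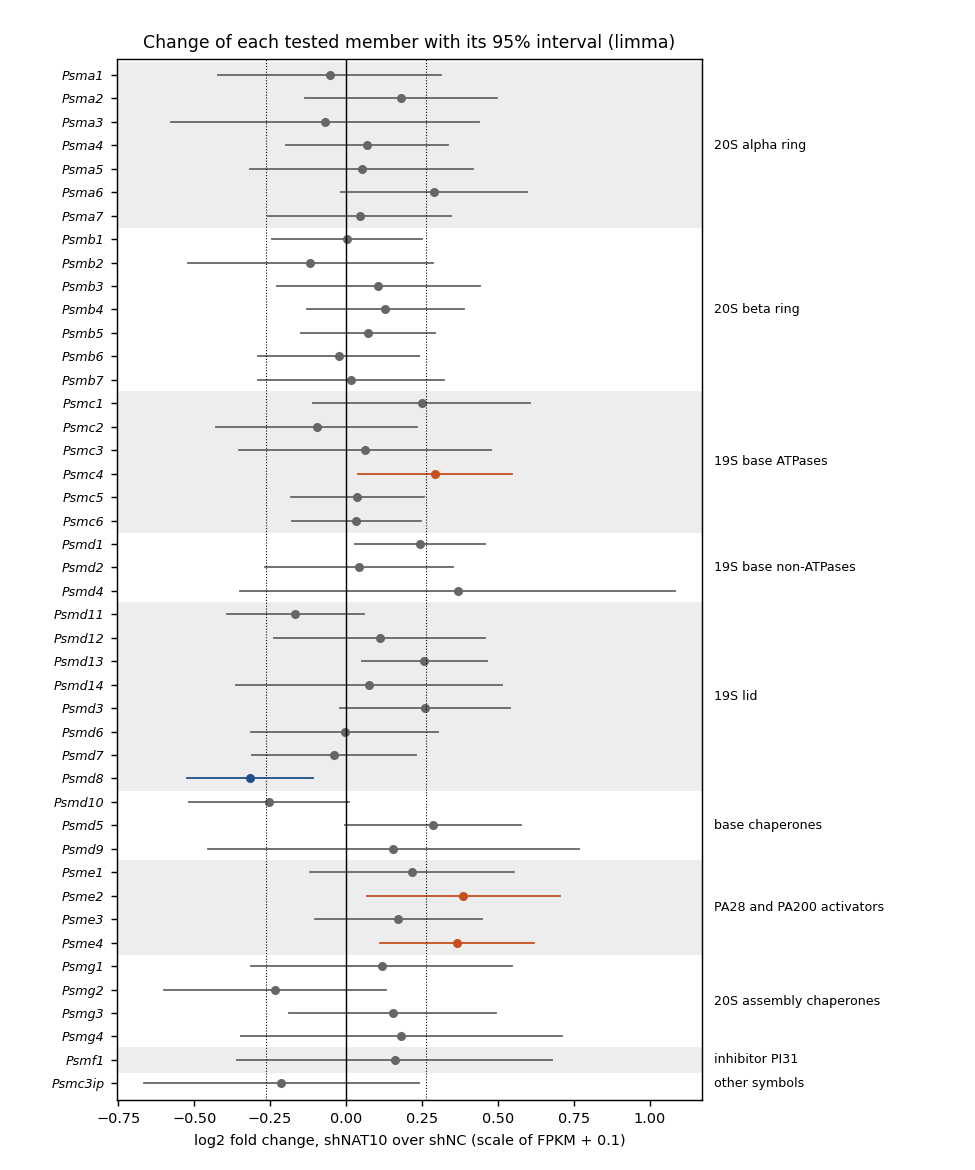
The log2 fold change of each of the 44 tested members, shNAT10 over shNC on the scale of log2(FPKM + 0.1), is drawn as a point with its 95% interval from limma, grouped by subcomplex, with dotted lines at a fold of 1.2 and called members in colour (orange higher, blue lower). *Psmc4*, *Psme2* and *Psme4* lie to the right, *Psmd8* lies to the left, and the core members lie between -0.12 and 0.29, with *Psma6* the farthest from 0.

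In level, the proteasome mRNAs were among the more abundant ones. The median member had a mean of 23.2 FPKM, at the 89.4th percentile of the 12837 protein-coding genes tested, whose median was 3.48 FPKM. The core mRNAs had a median of 74.7 FPKM, the regulatory mRNAs 20.1 FPKM and the assembly mRNAs 16.6 FPKM. Subunits that are present in equal copies in the particle had unequal mRNA levels, with a 41.8-fold range across the 14 tested core members, from *Psmb2* at a mean of 6.57 FPKM to *Psmb1* at 275 FPKM. Each tested member had 405 to 65018 fragments over the 4 libraries.

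**Figure D2:**
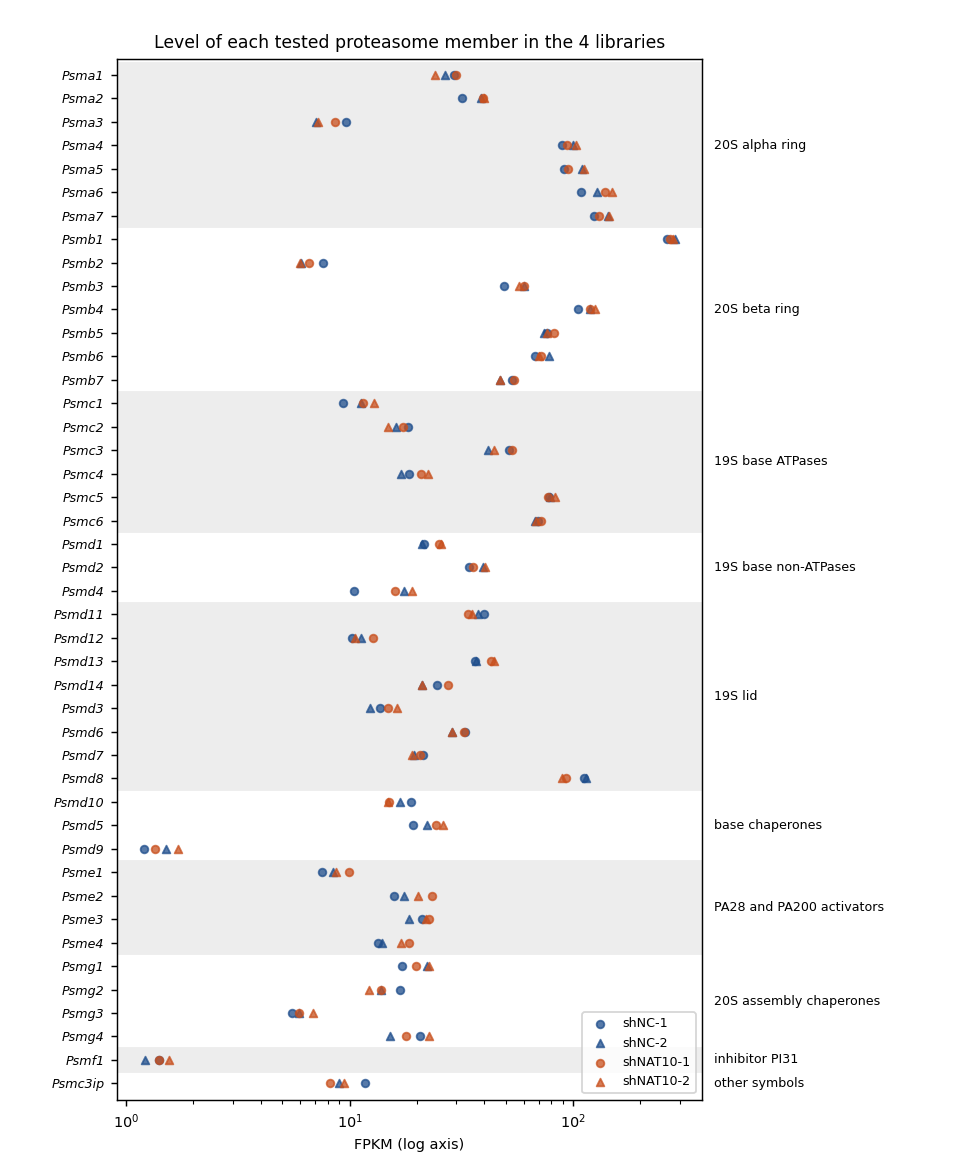
FPKM of the 44 tested members in each library on a log axis, grouped by subcomplex, with shNC in blue and shNAT10 in orange and replicate 1 as a circle and replicate 2 as a triangle. Differences between members, from 1.39 FPKM (*Psmf1*) to 275 FPKM (*Psmb1*), are far wider than differences between groups.

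No member of the core particle was called in either direction or had an unadjusted p under 0.05 in limma, but this changed with the processing. *Psma6* was called with limma-voom, after quantile normalization, with the same FPKM total of nuclear protein-coding genes, with the replicate number as a block and without shNC-2, where *Psma2* was called too. Averaged over its 14 tested members, log2(FPKM + 0.1) was 5.803 and 5.865 in shNC and 5.898 and 5.871 in shNAT10. The same average over the 25 tested regulatory members was 4.35 and 4.35 in shNC and 4.46 and 4.45 in shNAT10, and over the 4 assembly members it was 3.76 and 3.70 in shNC and 3.72 and 3.86 in shNAT10. The groups did not overlap for the core and regulatory averages, although the nearest core libraries of the groups were closer together than the 2 shNC libraries were, and they overlapped for the assembly average. The core average exceeded the regulatory average by 1.45 and 1.51 in shNC and by 1.43 and 1.43 in shNAT10. The median log2 fold change was 0.05 for core, 0.11 for regulatory and 0.14 for assembly members, and the core median was lower than the regulatory one by 0.06 (difference -0.06). The regulatory class holds more than the 19S particle. Its medians were 0.05 for the base ATPases, 0.24 for the other base subunits and 0.04 for the lid. They were 0.16 for the base chaperones, 0.29 for the alternative caps and -0.21 for *Psmc3ip* alone. With 1 library left out the core median ranged from 0.027 (without shNC-1) to 0.11 (without shNC-2), the regulatory median from 0.088 (without shNC-1) to 0.19 (without shNAT10-2), the assembly median from 0.012 (without shNC-1) to 0.24 (without shNAT10-1) and the difference from -0.12 (without shNAT10-2) to -0.031 (without shNC-2).

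In the alpha ring, whose subunits gate the barrel, the 7 tested members had log2 fold changes of -0.07 to 0.29, with a median of 0.05. *Psma6* gave the largest value of the ring, at 108 and 128 FPKM with shNC against 139 and 149 FPKM with shNAT10 (log2 fold change 0.29 ± 0.12 SE, unadjusted p = 0.059 in limma). Its groups did not overlap, but its p missed the threshold. *Psma2* also did not overlap, with 31.9 and 38.7 FPKM with shNC against 39.7 and 39.98 FPKM with shNAT10. *Psma7*, the most abundant alpha mRNA, stood at 124 and 144 FPKM with shNC against 131 and 145 FPKM with shNAT10, where the groups overlapped. *Psma3* was the least abundant, with means of 8.34 FPKM in shNC and 7.88 FPKM in shNAT10. *Psma8*, which encodes a testis-restricted alpha subunit, was listed at 0 in all 4 libraries.

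In the beta ring the 7 tested members lay between -0.12 and 0.13 on the log2 scale of the fold change, with a median of 0.02, and the 95% intervals of all 7 lay within 1.5-fold. *Psmb6*, the caspase-like cutting subunit, had 67.7 and 77.8 FPKM with shNC against 72.2 and 70.6 FPKM with shNAT10. *Psmb7*, the trypsin-like subunit, had 53.3 and 47.2 FPKM with shNC against 54.4 and 47.3 FPKM with shNAT10. *Psmb5*, the chymotrypsin-like subunit, had 76.3 and 74.4 FPKM with shNC against 82.2 and 76.3 FPKM with shNAT10. The groups overlapped for all 3 cutting subunits. *Psmb1*, a beta subunit with no cutting site, had 262 and 287 FPKM with shNC against 271 and 279 FPKM with shNAT10, with both shNAT10 libraries between the 2 shNC libraries. *Psmb4* was the 1 member of the ring without overlap, at 105 and 119 FPKM with shNC against 119 and 125 FPKM with shNAT10, with the nearest libraries of the groups less than 1 FPKM apart. *Psmb11*, which encodes the thymus-specific cutting subunit, had 2 fragments in shNC-2 and none elsewhere, under the floor of 3 fragments. The exons of *Psmb7* overlap those of *Nek6* on the opposite strand over 405 bases, and 24.1% of its 75-base words also occur in *Nek6* transcripts. Such words also make up 40% of *Psmb5*, shared with *Gm3375* and *Mir686*, and 33.1% of *Psmb3*, so their FPKM depend on how shared fragments were counted.

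The inducible cutting subunits were outside the selection rule. All 3 rose in shNAT10, which describes 3 genes chosen as a list and is set against the 8.41% of all genes given above. *Psmb8* had 59.7 and 60.3 FPKM with shNC against 75.9 and 80.8 FPKM with shNAT10 (log2 fold change 0.38 ± 0.08 SE, adjusted p = 0.142 in limma). *Psmb9* had 5.79 and 7.94 FPKM with shNC against 10.1 and 10.001 FPKM with shNAT10 (log2 fold change 0.56 ± 0.18 SE, adjusted p = 0.243 in limma). *Psmb10* had 16.9 and 12.7 FPKM with shNC against 24.7 and 21.2 FPKM with shNAT10 (log2 fold change 0.64 ± 0.17 SE, adjusted p = 0.207 in limma). None of the 3 overlapped between groups. With 1 library left out the log2 fold change ranged from 0.34 (without shNC-1) to 0.78 (without shNC-2) for *Psmb9* and from 0.44 (without shNC-2) to 0.84 (without shNC-1) for *Psmb10*. The call for *Psmb9* was lost without shNAT10-1 (unadjusted p = 0.203 in limma) or shNAT10-2 (unadjusted p = 0.196), and that for *Psmb10* without shNC-2 (unadjusted p = 0.0926), shNAT10-1 (unadjusted p = 0.188) or shNAT10-2 (unadjusted p = 0.109), while *Psmb8* kept its call whichever library was left out. Without the trend in limma the unadjusted p-values were 0.0549, 0.0719 and 0.0547 in the same order, past the threshold for none.

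Set against the partner that each replaces, the inducible mRNA took a larger share in both shNAT10 libraries. The ratio of *Psmb9* to *Psmb6* in FPKM was 0.0856 and 0.102 in shNC and 0.140 and 0.142 in shNAT10. The ratio of *Psmb10* to *Psmb7* was 0.317 and 0.269 in shNC and 0.454 and 0.447 in shNAT10. The ratio of *Psmb8* to *Psmb5* was 0.783 and 0.811 in shNC and 0.924 and 1.06 in shNAT10, so *Psmb8* mRNA passed that of its partner in 1 library. Of the 6 leukocyte markers, which mark cells where inducible subunits are usual, 4 fell (*Cd53*, *Laptm5*, *Fcer1g* and *Tyrobp*), none rose, and *Ptprc* and *Coro1a* were not called, beside 7.83% of all genes called lower and 8.41% higher. Calls were lost for *Cd53* without shNAT10-1 (unadjusted p = 0.0555 in limma), for *Tyrobp* without shNAT10-2 (unadjusted p = 0.0546 in limma) and for *Laptm5* without shNC-1 (unadjusted p = 0.176 in limma), shNAT10-1 (unadjusted p = 0.316) or shNAT10-2 (unadjusted p = 0.189), and for *Laptm5* also with the replicate block (unadjusted p = 0.0515 in limma). *Fcer1g* (log2 fold change -1.01, adjusted p = 0.0489 in limma) kept its call in every alternative fit. The part of blood cell content in the ratios was not tested.

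**Figure D3:**
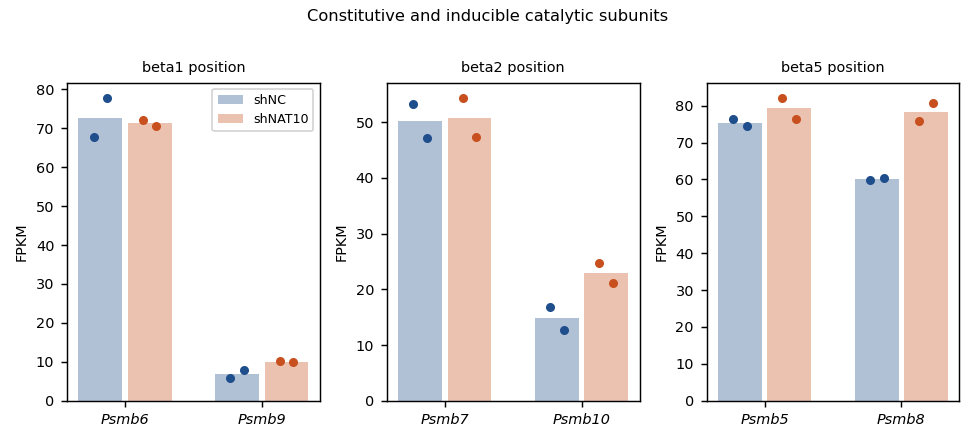
FPKM of the constitutive and the inducible subunit at each cutting position of the beta ring, with bars for the group mean, points for the 2 libraries, shNC in blue and shNAT10 in orange. The inducible mRNAs *Psmb8*, *Psmb9* and *Psmb10* are higher in both shNAT10 libraries, and the constitutive mRNAs *Psmb5*, *Psmb6* and *Psmb7* overlap between groups.

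Among the 19S base ATPases, which unfold the substrate, *Psmc4* was the 1 of 6 members called. It had 18.4 and 17.0 FPKM with shNC against 20.9 and 22.5 FPKM with shNAT10, without overlap (log2 fold change 0.29 ± 0.10 SE, 95% interval 0.04 to 0.55, adjusted p = 0.256 in limma). The call rested on each of 3 libraries, with an unadjusted limma p of 0.0889 without shNC-2, 0.07 without shNAT10-1 and 0.128 without shNAT10-2. It was also lost with all libraries scaled to the same FPKM total of nuclear protein-coding genes (unadjusted p = 0.0584 in limma) and with the replicate number as a block. *Psmc5*, the most abundant ATPase mRNA, had 77.7 and 78.5 FPKM with shNC against 77.2 and 83.3 FPKM with shNAT10, with overlap. *Psmc1*, the least abundant, had 9.34 and 11.2 FPKM with shNC against 11.5 and 12.9 FPKM with shNAT10, without overlap (log2 fold change 0.25 ± 0.14 SE). The other ATPase mRNAs, *Psmc2*, *Psmc3* and *Psmc6*, overlapped between groups, and the median of the 6 was 0.05 on the log2 scale.

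The base also holds scaffold and ubiquitin-binding subunits. *Psmd1*, a scaffold, had 21.6 and 21.1 FPKM with shNC against 25.1 and 25.6 FPKM with shNAT10, and its p passed while its fold did not (fold 1.18, unadjusted p = 0.033 in limma), except after quantile normalization, where it was called. *Psmd2*, the other scaffold, had 34.3 and 39.4 FPKM with shNC against 35.6 and 40.3 FPKM with shNAT10. *Psmd4*, the ubiquitin receptor Rpn10, had 10.4 and 17.5 FPKM with shNC against 16.0 and 19.1 FPKM with shNAT10. The 2 shNC libraries were farther apart for *Psmd4* than the group means were, and its interval of -0.35 to 1.09 was the 1 among the tested members to pass a 2-fold change. Without shNC-1 its log2 fold change was -0.0016 and without shNC-2 it was 0.74, where it was called, as it was with limma-voom.

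The lid, which holds the deubiquitinase *Psmd14* (Rpn11), was divided, with 4 of its 8 members above 0 and 4 below, and a median of 0.04. *Psmd8*, a lid subunit (Rpn12) whose incorporation completes lid assembly, was the most abundant regulatory mRNA and the 1 member that fell. It had 112 and 114 FPKM with shNC against 92.8 and 88.8 FPKM with shNAT10, so the nearest libraries of the groups were far apart compared with the gap inside either group (log2 fold change -0.32 ± 0.08 SE, 95% interval -0.53 to -0.11, adjusted p = 0.185 in limma). The call was lost without shNAT10-2 (log2 fold change -0.29, unadjusted p = 0.0543 in limma). No base of the *Psmd8* exons overlaps another gene, and none of its 75-base words occurs in another gene's transcripts. *Psmd13* moved the other way, at 36.3 and 36.8 FPKM with shNC against 43.1 and 44.4 FPKM with shNAT10, with an unadjusted limma p of 0.0238 at a fold of 1.196, just under the threshold. It was called after quantile normalization, without shNC-2 and without shNAT10-1. *Psmd13* overlaps *Sirt3* on the opposite strand over 342 bases. *Psmd3* had 13.6 and 12.4 FPKM with shNC against 14.9 and 16.3 FPKM with shNAT10, and *Psmd11* had 40.1 and 37.6 FPKM with shNC against 33.8 and 35.4 FPKM with shNAT10. Neither overlapped and neither was called, except *Psmd3* with limma-voom. *Psmd14*, *Psmd6*, *Psmd7* and *Psmd12* overlapped between groups.

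The chaperones of the base are gathered under Psmd symbols although they leave the finished particle. *Psmd5* had 19.3 and 22.2 FPKM with shNC against 24.4 and 26.2 FPKM with shNAT10, without overlap (log2 fold change 0.29 ± 0.11 SE, unadjusted p = 0.0509 in limma). *Psmd10*, known as gankyrin, had 18.8 and 16.8 FPKM with shNC against 15.0 and 14.8 FPKM with shNAT10, also without overlap and in the opposite direction (log2 fold change -0.25 ± 0.10 SE, unadjusted p = 0.0565 in limma). *Psmd9*, the least abundant regulatory member tested, had 1.198 and 1.51 FPKM with shNC against 1.34 and 1.70 FPKM with shNAT10. The base chaperones gave values on both sides of 0, and none passed the threshold in the reported fit. *Psmd5* did pass it with no filter on low values, with the same FPKM total of nuclear protein-coding genes, after quantile normalization, with limma-voom and with the replicate block. Without shNC-2, *Psmd5* and *Psmd10* were both called, *Psmd10* at a log2 fold change of -0.34 with an unadjusted limma p of 0.0169.

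The alternative caps were higher in both shNAT10 libraries for all 4 of their tested genes, with a median log2 fold change of 0.29, and 2 of the 4 were called, where 23.9% of all genes lay higher without overlap and 8.41% were called higher. With 4 genes grouped with the results known, these counts are a description. *Psme4*, which encodes PA200, a nuclear cap with a role in histone breakdown, had 13.4 and 14.0 FPKM with shNC against 18.4 and 16.9 FPKM with shNAT10 (log2 fold change 0.37 ± 0.10 SE, 95% interval 0.11 to 0.62, adjusted p = 0.197 in limma). *Psme2*, the beta subunit of the interferon-inducible PA28 cap, had 15.7 and 17.5 FPKM with shNC against 23.4 and 20.2 FPKM with shNAT10 (log2 fold change 0.39 ± 0.12 SE, 95% interval 0.07 to 0.70, adjusted p = 0.241 in limma). Its partner in the same ring, *Psme1*, had 7.55 and 8.47 FPKM with shNC against 9.99 and 8.68 FPKM with shNAT10, without overlap but with an unadjusted limma p of 0.155. *Psme3*, the nuclear PA28 gamma, had 21.2 and 18.5 FPKM with shNC against 22.6 and 22.1 FPKM with shNAT10, also without overlap and not called.

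The calls of the caps depended on single libraries. *Psme2* lost its call whichever library was left out, with unadjusted limma p-values of 0.157 without shNC-1, 0.0794 without shNC-2, 0.139 without shNAT10-1 and 0.0524 without shNAT10-2. *Psme4* lost it without shNC-1 (unadjusted p = 0.0595 in limma) or shNAT10-1 (unadjusted p = 0.0549 in limma), at log2 fold changes of 0.33 and 0.31. *Psme3* gained a call without shNC-1 (log2 fold change 0.27, unadjusted p = 0.0272 in limma). *Psme2* also shares 51.7% of its 75-base words with *Psme2b*, a near copy on chromosome 11, so fragments of the pair can be split in counting. *Psme2b* had no fragment in either shNC library and 2 in each shNAT10 library, all under the floor of 3 fragments, and gets no fold.

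The assembly chaperones of the 20S ring had no called member, with log2 fold changes above 0 for 3 of the 4 and below 0 for 1. *Psmg1* had 17.1 and 22.2 FPKM with shNC against 19.7 and 22.7 FPKM with shNAT10. *Psmg2*, the partner of *Psmg1* in 1 chaperone pair, had 16.8 and 13.8 FPKM with shNC against 13.8 and 12.2 FPKM with shNAT10 (log2 fold change -0.23 ± 0.14 SE). Neither was called, and without shNC-1 the log2 fold changes of *Psmg1* and *Psmg2* were -0.071 and -0.094. *Psmg3* had 5.50 and 5.97 FPKM with shNC against 5.95 and 6.85 FPKM with shNAT10, and its partner *Psmg4* had 20.7 and 15.2 FPKM with shNC against 17.9 and 22.6 FPKM with shNAT10, both with overlap. *Psmf1*, which encodes the inhibitor PI31, was the least abundant tested member, with 1.40 and 1.22 FPKM with shNC against 1.40 and 1.55 FPKM with shNAT10. *Psmc3ip* meets the symbol rule but encodes a partner of meiotic recombinases and no proteasome subunit, and it had 11.7 and 8.94 FPKM with shNC against 8.19 and 9.47 FPKM with shNAT10.

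Genes that control or accompany the proteasome were read from lists. Of 16 regulators of proteasome gene expression, 4 fell and none rose, with a median log2 fold change of -0.10, where 7.83% of all genes were called lower and 8.41% higher. *Nfe2l1*, the factor that raises proteasome genes when activity falls short, had 104 and 89.7 FPKM with shNC against 59.1 and 63.4 FPKM with shNAT10 (log2 fold change -0.66 ± 0.11 SE, adjusted p = 0.103 in limma). *Sel1l*, an adaptor of the ER ubiquitin ligase Hrd1, had 14.3 and 12.2 FPKM with shNC against 6.38 and 6.61 FPKM with shNAT10 (log2 fold change -1.01 ± 0.12 SE, adjusted p = 0.069 in limma). *Syvn1*, which encodes Hrd1 itself, had 3.12 and 2.56 FPKM with shNC against 1.503 and 1.71 FPKM with shNAT10 (log2 fold change -0.78 ± 0.18 SE, adjusted p = 0.171 in limma). The groups stood well apart for these 3 genes.

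*Maff*, a small Maf protein that pairs with Nfe2l1 and Nfe2l2, also fell, from 7.51 and 7.59 FPKM to 5.60 and 4.40 FPKM. *Nfe2l2*, the factor of the oxidative stress response, was not called, with 7.36 and 7.41 FPKM with shNC against 9.32 and 7.82 FPKM with shNAT10. *Sel1l* kept its call whichever library was left out, *Nfe2l1* lost it without shNAT10-1 (unadjusted p = 0.0587 in limma), *Maff* lost it without shNC-1 (unadjusted p = 0.111 in limma) or shNC-2 (unadjusted p = 0.116 in limma), and *Syvn1* lost it without shNC-1 (unadjusted p = 0.0652 in limma), shNAT10-1 (unadjusted p = 0.0947 in limma) or shNAT10-2 (unadjusted p = 0.0656 in limma). *Nfe2l2* gained a call without shNAT10-2 (unadjusted p = 0.0491 in limma).

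**Figure D4:**
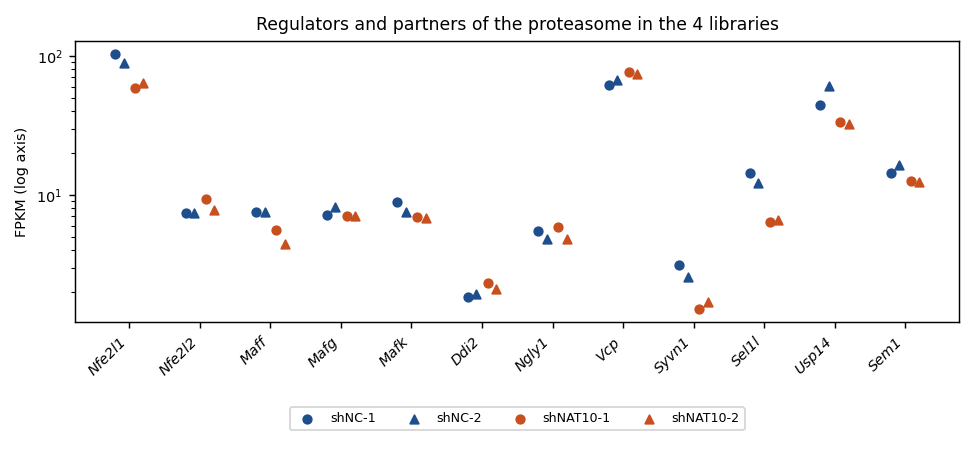
FPKM on a log axis, in each of the 4 libraries, of regulators of the proteasome genes and of proteins bound to the particle, with shNC in blue, shNAT10 in orange, replicate 1 as a circle and replicate 2 as a triangle. *Nfe2l1*, *Maff*, *Syvn1*, *Sel1l*, *Usp14* and *Sem1* are lower in both shNAT10 libraries and were called.

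The element to which Nfe2l1 and Nfe2l2 bind, the antioxidant response element, has the core letters TGACNNNGC. In RefSeq promoters of GRCm38.p6, taken from 250 bases before to 50 bases after each start and matched for 39 of the 47 members, either strand held this core in 6 members (15.4%), in 12.4% of all 32851 promoters and in 16.8% of the 11014 genes tested here that had a promoter in the table. The stretches below show the core in capitals with up to 20 bases on each side, on the strand of the gene, to place the element in the members that hold it.
Psmb5 (chr14:54618014-54618062, minus strand, core begins 47 bases before the start): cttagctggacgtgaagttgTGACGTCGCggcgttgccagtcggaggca
Psmb6 (chr11:70525328-70525376, plus strand, 9 bases before the start): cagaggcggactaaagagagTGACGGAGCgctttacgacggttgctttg
Psmc6 (chr14:45329577-45329625, plus strand, 227 bases before the start): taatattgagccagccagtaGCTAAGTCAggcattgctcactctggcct
Psmd9 (chr5:123228139-123228187, plus strand, 31 bases before the start): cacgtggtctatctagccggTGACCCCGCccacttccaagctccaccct
Psmd12 (chr11:107479278-107479309, plus strand, 247 bases before the start): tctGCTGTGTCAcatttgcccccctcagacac
Psme4 (chr11:30771748-30771796, plus strand, 7 bases before the start): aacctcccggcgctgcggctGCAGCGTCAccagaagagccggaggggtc

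In *Psmb5*, *Psmb6* and *Psmd9* the core reads in the direction of the gene, and in *Psmc6*, *Psmd12* and *Psme4* it lies on the opposite strand. The 6 members with the core had log2 fold changes of 0.07 for *Psmb5*, -0.02 for *Psmb6*, 0.03 for *Psmc6*, 0.16 for *Psmd9*, 0.11 for *Psmd12* and 0.37 for *Psme4*, so *Psme4* was the 1 of them that was called. No match of the core was found in the windows of *Psmc4*, *Psmd8* and *Psme2*, the other called members. The CCAAT box (CCAAT, either strand) occurred in 14 of the 39 members (35.9%) in 37.4% of all promoters and in 42.6% of those 11014 genes, and the GC box (GGGCGG, either strand) in 22 members (56.4%), in 35.7% of all promoters and in 64.8% of those genes.

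Other subunits and bound proteins without a Psm symbol gave 3 falls and no rise among the 15 tested, beside the same shares of all genes (7.83% lower and 8.41% higher). *Usp14*, a deubiquitinase that docks on the 19S base, had 44.3 and 60.5 FPKM with shNC against 33.5 and 32.2 FPKM with shNAT10 (log2 fold change -0.66 ± 0.17 SE, adjusted p = 0.19 in limma). *Tpp2*, a large cytosolic peptidase that trims proteasome products, had 23.7 and 23.3 FPKM with shNC against 18.4 and 16.3 FPKM with shNAT10. *Sem1*, the smallest lid subunit, had 14.3 and 16.4 FPKM with shNC against 12.6 and 12.5 FPKM with shNAT10. The calls of these 3 genes were each lost in leave-one-out fits, with unadjusted limma p-values for *Usp14* of 0.145 without shNAT10-1 and 0.166 without shNAT10-2, for *Tpp2* of 0.0655 without shNC-1 and 0.0581 without shNC-2, and for *Sem1* of 0.0536 without shNC-2, 0.166 without shNAT10-1 and 0.182 without shNAT10-2. *Sem1* also lost its call with the replicate block (unadjusted p = 0.0644 in limma) and after quantile normalization (unadjusted p = 0.0543 in limma). *Pomp*, the maturation factor of the 20S core, was not called, at 15.7 and 13.3 FPKM with shNC against 16.7 and 12.1 FPKM with shNAT10. *Ddi1* was listed at 0 in all libraries.

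Upstream of the proteasome, 1 of 10 ubiquitin genes and activating or conjugating enzymes was called, where 7.83% of all genes were called lower and 8.41% higher, so counts of 1 or 0 in lists of this size lie near that background. *Ubb*, a polyubiquitin gene, had 815 and 859 FPKM with shNC against 673 and 692 FPKM with shNAT10, without overlap, and its call was lost whichever library was left out (unadjusted limma p from 0.0508 without shNC-1 and 0.0841 without shNC-2 to 0.252 without shNAT10-1 and 0.204 without shNAT10-2) and with the replicate block (unadjusted p = 0.0634 in limma). Of the 13 genes for the p97 unfoldase and its cofactors, *Ufd1* fell, from 9.19 and 8.86 FPKM to 6.87 and 6.50 FPKM, and kept its call in each of these fits. Of other large complexes read for comparison, the CCT chaperonin had no called gene among 8 and the COP9 signalosome, which resembles the lid, had none among 9, with median log2 fold changes of 0.04 and 0.03. At an unadjusted p under 0.05 limma gave 0 CCT genes and 1 COP9 gene (*Gps1*), where 16.6% of all genes had one, and limma-voom called *Cops4*. These medians stand beside 0.05 for the core and 0.04 for the lid.

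Some markers of other cell types were called, beside 8.41% of all genes called higher and 7.83% lower. Besides the 4 leukocyte markers that fell, *Ms4a2* rose and *Gata2* fell among 5 mast cell markers, whose summed level was 288 and 302 FPKM with shNC against 308 and 302 FPKM with shNAT10, with *Fcer1a* at 0. Most of this sum was *Cpa3*, at 245 and 262 FPKM with shNC against 272 and 267 FPKM with shNAT10. *Col3a1* and *Pdgfra* rose among 5 fibroblast markers, whose sum was 51.7 and 44.8 FPKM with shNC against 60.7 and 51.4 FPKM with shNAT10. Most of that sum was *Dcn*, at 41.1 and 36.2 FPKM with shNC against 45.9 and 36.8 FPKM with shNAT10. Leaving out shNAT10-1 gave an unadjusted limma p of 0.0587 for *Ms4a2*, 0.0615 for *Gata2* and 0.0999 for *Pdgfra*, leaving out shNAT10-2 gave 0.0664 for *Gata2*, 0.0839 for *Pdgfra* and 0.0941 for *Col3a1*, and *Col3a1* also lost its call without shNC-1 (unadjusted p = 0.0645 in limma) or shNC-2 (unadjusted p = 0.0932). None of 5 granulosa cell markers was called, their sum stayed at or under 0.485 FPKM, and *Foxl2* and *Fshr* were at 0. The 7 germline markers summed to 9.38 and 22.3 FPKM with shNC against 27.3 and 33.6 FPKM with shNAT10, nearly all of it *Ifitm3*. The part of these markers in the proteasome values was not tested. Of the 47 members, 19 share at least 1 word of 75 bases with transcripts of other genes, 13 of them over 10% of their words, and exons of 10 members overlap a gene on the opposite strand.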

How the data were processed

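The authors deposited FPKM for 53465 genes in 4 libraries, made with cutadapt and HISAT2 on mm10 per the labels. The annotation and counter are not given in the sources used here, and the sources differ on the library preparation (rRNA depletion in the paper, mRNA isolation in the labels), which can change the share of mRNA in FPKM. A second table, with log2 fold changes and p-values of the authors' DESeq2 comparison, was not used. Libraries were grouped by their titles.

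The 20116 genes whose FPKM averaged 0.1 or more were put on the scale log2(FPKM + 0.1) and compared with limma 3.58.1 (R 4.3.3, lmFit, eBayes with trend, two-sided, no covariate), with Benjamini-Hochberg adjustment over all genes. This scale understates the change of low genes. Errors are standard errors of the log2 fold change from this fit, with 2 libraries per group. The threshold, a fold over 1.2 at an unadjusted p of at most 0.05, follows the paper.

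Whole fragments were recovered from the FPKM with GENCODE M21 exon lengths for 53360 genes (at least 96.0% of values under 50 fragments were whole within 0.02 fragments), and were used for depth, the floor and the voom alternative. Promoters come from RefSeq. Genes named by rule were the called members, the 3 largest rises and falls, the extremes of level in each class, the cutting subunits, caps, chaperones and inhibitor, and the called list genes, and other members named in the text were added with their values known. The members and lists were chosen with earlier results of these data known. Alternatives were other pseudocounts, filters and scalings, limma without the trend, limma-voom, a replicate block and leaving out each library.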

Additional observations from a re-analysis of the deposited data

How the results depend on the processing

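With 2 libraries per group, a single library decided many values. The number of members called higher was 3 in the reported fit, 5 with no filter on low values (among them *Psme2b*, which is under the floor of 3 fragments in every library), 7 after quantile normalization, 7 with limma-voom on recovered fragments, 0 with limma without the trend and 1 to 6 when 1 library was left out. The share of all genes called higher was 8.41%, 6.94%, 8.22%, 10%, 7.64% and 5.51% to 8.62% in the same order. The number called lower was 1 in the reported fit (7.83% of all genes), 0 without the trend (6.04%) and 0 to 2 with 1 library left out (4.47% to 8.25%). The median log2 fold change of all members, 0.07, was 0.11 after quantile normalization and 0.046 to 0.12 with 1 library left out. The regulatory median, 0.11, was 0.10 with a pseudocount of 1, 0.13 with no filter, 0.13 after quantile normalization and 0.088 to 0.19 with 1 library left out. With 1 library left out the core median was 0.027 to 0.11, the assembly median 0.012 to 0.24 and the core minus regulatory median -0.12 to -0.031. In these fits the lone library was assumed to vary like the other group.

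With 1 library left out the sign changed for 23 of the 44 tested members. After quantile normalization the log2 fold change of *Psmb1* was -0.15 and that of *Psmb6* was 0.017. Among the members named by rule, the range with 1 library left out crossed 0 for *Psma7* (-0.059 to 0.15), *Psmb1* (-0.062 to 0.069), *Psmb6* (-0.13 to 0.077), *Psmb7* (-0.084 to 0.12), *Psmc5* (-0.017 to 0.092), *Psmd4* (-0.0016 to 0.74), *Psmd9* (-0.0050 to 0.32), *Psmg1* (-0.071 to 0.31) and *Psmg4* (-0.041 to 0.40).

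The replicate block gave 4 members called higher and 1 lower, with *Psmd5* and *Psma6* gained and *Psmc4* lost (unadjusted p = 0.055 in limma), where 7.89% of all genes were called higher and 7.59% lower. Among the other named genes it ended the calls of *Sem1*, *Ubb* and *Laptm5*. Deviations of same-numbered libraries from their group means correlated at 0.00711 over all genes tested, at 0.0547 over genes with a mean of at least 10 FPKM and at 0.404 over the 44 tested members, across genes that are not independent. The labels give no shared origin for a number, so the libraries were taken to share only a number. Median-ratio rescaling had the same factor in all 4 libraries, so it moved nothing and tests nothing. An equal factor means that the FPKM already carried a scaling of this kind. *Psma8*, *Psmb11* and *Psme2b* had a mean under 0.1 FPKM and were not tested in the reported fit.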
